A study of Mus musculus with 6 samples.

Results

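The genes described are the matrix metalloproteinases (MMPs), the ADAMs, the ADAMTSs and the tissue inhibitors of metalloproteinases (TIMPs) of the mouse. They were chosen by gene symbol among the protein-coding genes of the table, which gave 78 of 49548 genes: 22 MMPs, 33 ADAMs, 19 ADAMTSs and 4 TIMPs. Their levels were measured in cancer-associated fibroblasts (CAFs) from colonic adenomas that azoxymethane and dextran sulfate sodium (AOM/DSS) had induced in Col6a1-cre, Rosa26-mTmG mice of the C57/BL6 strain. All groups carried the same alleles and received the same treatment. QuantSeq, which reads the 3′ ends of mRNAs, was done on 6 libraries, 3 of GFP+ cells, called Col6a1+ CAFs, and 3 of Tomato+ cells, called Col6a1− CAFs. Cells were sorted after removal of those positive for CD45, EpCAM, CD31 or Ter119. In this reporter, Cre activity replaces Tomato with GFP, so the groups are set by where Col6a1Cre has been active, which in the intestine is mainly in fibroblasts with high PDGFRa and in perivascular cells. Each library came from tumors pooled from several mice, the study used both sexes, and the Tomato+ group is every remaining cell that passed the sort.

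MMPs are zinc-dependent enzymes that cut collagens, laminins, proteoglycans and other matrix proteins, and most are made as inactive precursors whose propeptide has to be removed. ADAMs are membrane proteins, many of which shed the outer part of growth factors, cytokine receptors and adhesion molecules, while ADAMTSs are secreted enzymes that process procollagen and cut proteoglycans such as versican and aggrecan. TIMPs bind the active site of these enzymes, and in the intestine stromal cells and epithelium both contribute to the balance between them.

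Levels are the authors' normalized counts, which are read counts per gene divided by a size factor for the library. They were not divided by gene length. Differences are read between libraries and not between genes, except where members are ranked or summed by count. The summed normalized counts of the libraries ranged from 3039152 to 3425249. Col6a1+ replicate 1 stood apart, with 14530 genes having a count against 18770 to 20511 in the other libraries, and with a correlation of 0.753 (log2 values, genes whose mean over the 6 libraries was 10 or more) with each of the other Col6a1+ libraries, which correlated with each other at 0.930. Col6a1 was higher in the Col6a1+ libraries (861, 1287 and 1941 normalized counts) than in the Col6a1− libraries (182, 321 and 102), with a limma adjusted p of 0.00613 (0.0983 with the replicate number as a block, below). Markers of other cells were present and moved with the groups. The summed counts of 9 epithelial markers were 4974 to 5339 in the Col6a1+ libraries and 18230 to 27875 in the Col6a1− libraries, in spite of the exclusion of EpCAM+ cells, and 7 of the 9 were called lower in Col6a1+ CAFs. The 10 leukocyte genes, 2 of them called lower, summed to 52 to 81 against 448 to 845. Most of the Col6a1− counts were of these 2, S100a8 (211, 387 and 167) and S100a9 (229, 391 and 162). The others were not called, and Csf1r, Cd79a and Adgre1 among them leaned higher in Col6a1+ CAFs. Ptprc, which encodes CD45, was at 0, 2 and 0 against 7, 8 and 3. Pericyte genes summed to 33875 to 48695 against 365 to 807 (4 of 4 called higher), smooth muscle genes to 2146 to 3146 against 81 to 390 (3 of 4 higher) and fibroblast genes to 37468 to 41177 against 6799 to 13785 (4 of 6 higher). Endothelial genes summed to 62 to 133 against 119 to 260, erythroid genes to 110 to 1713 against 281 to 482, glial genes to 50 to 73 against 19 to 52 and mesothelial genes to 1 to 4 against 5 to 33, and limma called no gene of these lists. The part of these cell mixtures in the differences below was not tested, and in bulk samples fewer cells of a type cannot be told apart from less RNA per cell.

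Among the members, more were higher than lower in Col6a1+ CAFs. Of the 78 genes, 17 were at 0 in all libraries and 61 were tested, 37 of them with a mean of 10 normalized counts or more over the 6 libraries. The log2 fold change takes the group means of log2(normalized count + 1) and subtracts Col6a1− from Col6a1+ CAFs. It was tested with limma over all 26402 genes with a count and is given with its standard error (SE), and a call needs an adjusted p below 0.05. A total of 14 members were called, 23% of those tested, against 4.62% of all genes tested and 6.83% of the protein-coding ones. Higher in Col6a1+ CAFs were 9 members (14.8%, against 2.66% of all genes tested): Mmp9, Mmp10, Mmp11, Mmp17, Adamts1, Adamts2, Adamts4, Adamts9 and Adamts15. Lower were 5 (8.2%, against 1.96%): Mmp7, Mmp15, Adam8, Adam10 and Adamts17. All 14 had a mean of at least 10, and they were 37.8% of the members with that mean, against 8.82% of all genes with it (5.15% higher and 3.67% lower). The median log2 fold change was 0.53 over the 61 tested members and 1.44 over the 37, against -0.27 and -0.15 over all genes. The Col6a1+ libraries were all above the Col6a1− libraries for 20 of the 37 (54.1%, against 14.2% of all genes with that mean), and all below them for 5 (13.5%, against 17.6%).

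**Figure D1:**
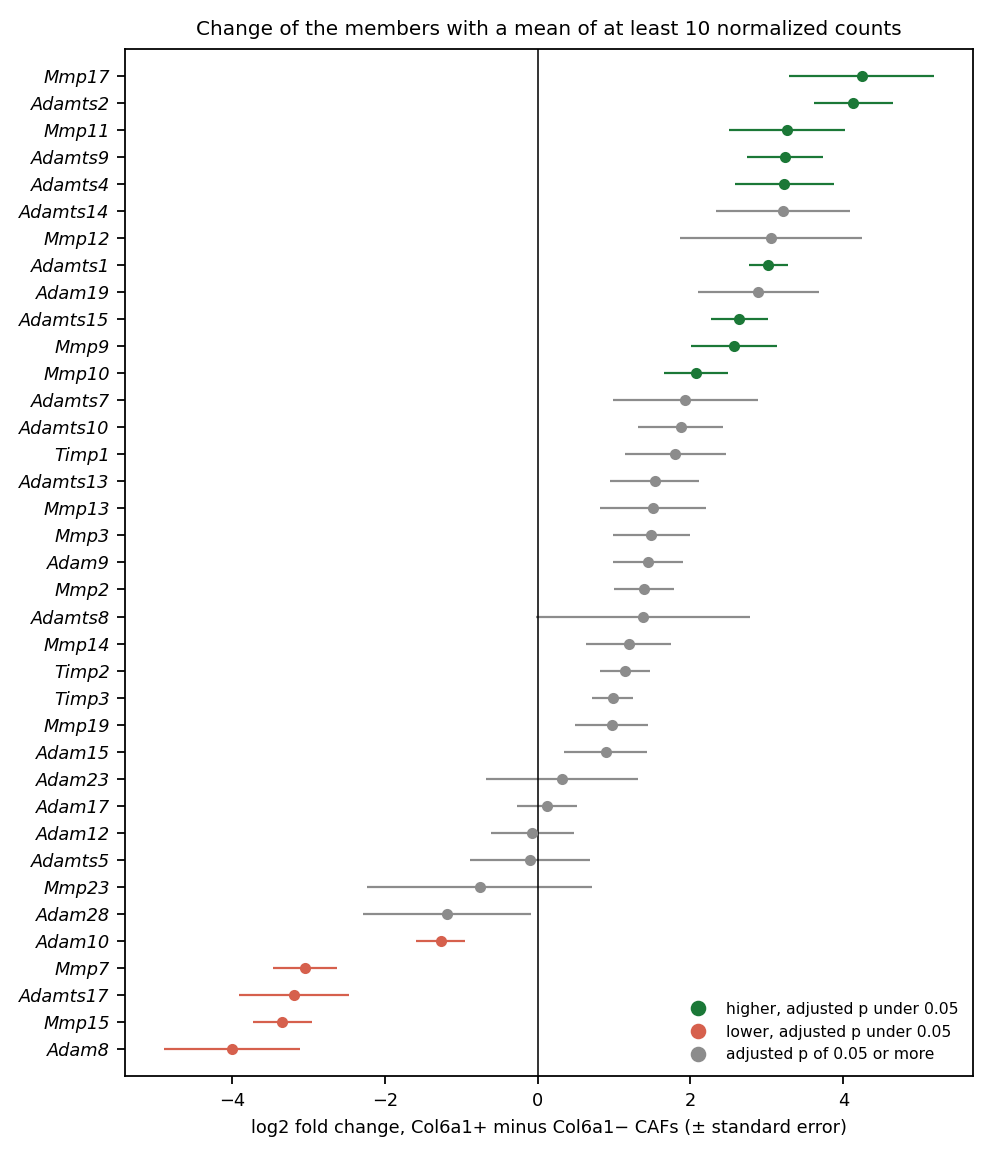
Log2 fold change (horizontal axis, Col6a1+ minus Col6a1− CAFs, with the standard error as a bar) of the 37 members whose mean was 10 normalized counts or more, coloured by the limma call. The called members run from -4.00 (Adam8) to 4.24 (Mmp17), and the ADAMTSs lie mostly to the right of 0.

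The calls changed with the pairing, the filter on low values and the libraries used. The replicate numbers were read as pairs, which the labels do not state. With the number as a block in the fit, limma called no gene of the table (smallest adjusted p 0.0612). At an unadjusted p under 0.05 that fit gave 21 members higher (34.4%, against 7.01% of all genes tested) and 7 lower (11.5%, against 9.72%), so the share of lower members was near that of all genes. With the block and only genes whose mean was at least 10, 21 members were called, 16 higher and 5 lower, including all 14, where 13.7% of all such genes were called (7.26% higher and 6.44% lower). Without Col6a1+ replicate 1, 2 or 3 or without Col6a1− replicate 1, limma called no gene. At unadjusted p-values these 4 fits gave 15 to 21 members higher (24.6% to 34.4%, against 5.78% to 9.22% of all genes) and 6 to 8 lower (9.84% to 13.1%, against 7.69% to 10%). Without Col6a1− replicate 2, Adamts1 and Adam33 were called, where 98 of all 26402 genes tested were called higher and 166 lower. Without Col6a1− replicate 3, Adamts1 and Adamts9 were called, where 63 of all genes were higher and 125 lower. At unadjusted p-values these 2 fits gave 24.6% and 21.3% of members higher, against 5.87% and 5.53% of all genes. Lower were 11.5% in both, against 7.76% and 7.45%. Leaving out Col6a1+ replicate 1, the library that stands apart, gave log2 fold changes of 2.06 to 4.34 for the 9 higher members (adjusted p 0.0503 to 0.221) and of -3.66 to -1.27 for the 5 lower ones (0.0503 to 0.142). Adding 0.1 in place of 1 before the log ended the calls of Mmp11, Mmp17, Adam8, Adam10 and Adamts17, limma-voom those of Adam10 and Adamts17, and upper quartile scaling that of Adam10.

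The gelatinases, which cut denatured collagen and the type IV collagen of basement membranes, were Mmp9 and Mmp2. Mmp9 (chr2:164940780-164955850, mm10) had 3677, 844 and 1985 normalized counts in Col6a1+ replicates 1, 2 and 3 and 423, 147 and 473 in the Col6a1− replicates. The groups did not overlap, and the mean was 2169 ± 1425 (SD, n = 3) against 348 ± 176 (SD, n = 3), a log2 fold change of 2.57 (SE 0.56, limma adjusted p = 0.0286, 0.0612 with the block). Mmp2 had 828, 1551 and 2010 against 650, 651 and 340, also without overlap, and did not pass (log2 fold change 1.39, limma adjusted p = 0.0786). Mmp14, a membrane-bound MMP that activates the Mmp2 precursor together with Timp2, had 250, 856 and 956 against 128, 392 and 342. Its groups overlapped, since Col6a1+ replicate 1 lay below 2 of the Col6a1− libraries (log2 fold change 1.19, limma adjusted p = 0.333). Each Col6a1+ library was nonetheless above the Col6a1− library of its own number. The limma adjusted p was 0.101 with the block over all genes and 0.0194 with the block over genes whose mean was at least 10.

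Stromelysins gave 2 further calls. Mmp10 (chr9:7502352-7510240), a stromelysin that cuts many matrix proteins and activates other MMP precursors, had 2454, 2183 and 2749 normalized counts in the Col6a1+ libraries and 1199, 322 and 516 in the Col6a1− libraries. Its level was even across the Col6a1+ libraries, all of which lay above the highest Col6a1− library (log2 fold change 2.07, SE 0.42, limma adjusted p = 0.0215, 0.105 with the block). Mmp11 (chr10:75923222-75932502), a stromelysin known as a product of fibroblasts around carcinomas, had 258, 113 and 156 against 49, 20 and 4. The groups were apart in all libraries (log2 fold change 3.26, SE 0.76, limma adjusted p = 0.0373, 0.115 with the block). Mmp3, another stromelysin, had 97, 224 and 237 against 110, 52 and 39, where Col6a1+ replicate 1 fell below Col6a1− replicate 1 (log2 fold change 1.49, limma adjusted p = 0.147). Mmp3 and Mmp14 lie outside the rule for named genes and were chosen after their values were seen.

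Of the membrane-bound MMPs, Mmp17 and Mmp15 differed in opposite directions. Mmp17 (chr5:129584169-129611099), which is held at the cell surface by a lipid anchor, had 34, 35 and 52 normalized counts in Col6a1+ CAFs and 0, 4 and 1 in Col6a1− CAFs. A level of 0 allows up to 3 counts, and the log2 fold change of 4.24 (SE 0.95, limma adjusted p = 0.0311, 0.106 with the block) depends on the 1 added before the log. Mmp15 (chr8:95352268-95375080), a transmembrane MMP, had 28, 67 and 43 against 388, 447 and 516. It was lower in every Col6a1+ library (46.0 ± 19.7 against 450.3 ± 64.1, SD, n = 3), with a log2 fold change of -3.34 (SE 0.39, limma adjusted p = 0.00173, 0.0612 with the block).

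Mmp7 (chr9:7692090-7699585), or matrilysin, a short MMP made mainly by epithelial cells, was the other MMP lower in Col6a1+ CAFs. It had 57, 134 and 69 normalized counts against 1034, 595 and 493 in Col6a1− CAFs. Its highest Col6a1+ library stayed far below its lowest Col6a1− library (log2 fold change -3.04, SE 0.42, limma adjusted p = 0.00302, 0.0737 with the block). Among the remaining MMPs named by the rule, Mmp13, the main interstitial collagenase of rodents, had 2039, 468 and 812 against 893, 117 and 321. The unpaired groups overlapped, while each Col6a1+ library was above the Col6a1− library of its own number (log2 fold change 1.51, limma adjusted p = 0.324). With the block it was 0.0835 over all genes and 0.00947 over genes whose mean was at least 10. Mmp19, which cuts basement membrane proteins, had 127, 179 and 144 against 122, 96 and 36 (limma adjusted p = 0.361). Mmp12, the elastase known from macrophages, had 74, 6 and 12 against 0, 1 and 5, with most of its counts in Col6a1+ replicate 1 (limma adjusted p = 0.22).

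**Figure D2:**
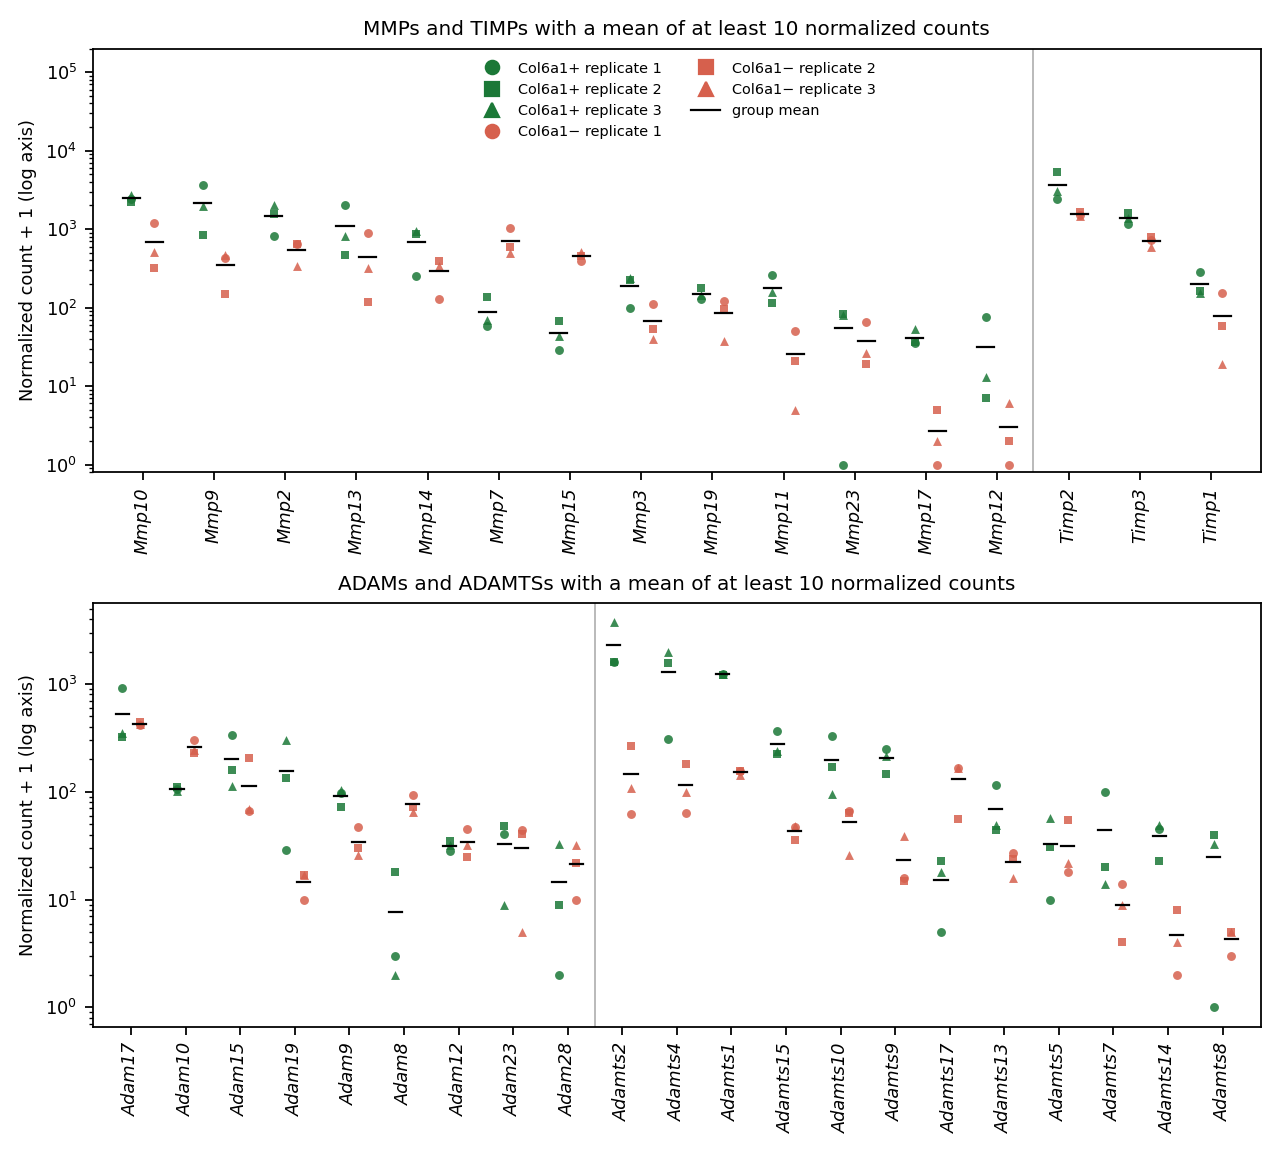
Normalized count + 1 (log axis) of each library for the 37 members with a mean of at least 10, MMPs and TIMPs above and ADAMs and ADAMTSs below, with the group mean as a line. Green Col6a1+ points stand above red Col6a1− points without overlap for 20 members and below them for 5.

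Mmp7, Mmp10 and Mmp13 belong to a cluster of 9 Mmp genes on chromosome 9, which spans 427 kb (chr9:7272514-7699585). The cluster held 1 member higher in Col6a1+ CAFs (Mmp10), 1 lower (Mmp7), 6 that were not called and 1 at 0 in all libraries (Mmp27). Promoter windows, from 250 bases before to 50 after the gene start, were taken from RefSeq (GRCm38.p6, a patch release of mm10) for 48 members in 53 windows. A pair of short words known from MMP promoters were searched on both strands: the AP-1 word TGAGTCA (reverse TGACTCA), which Fos and Jun proteins bind, and the TATA word TATAAA (reverse TTTATA). The AP-1 word was in 17% of the members' windows against 5.2% of all 32851 windows, and both words were in 7 of the 53 (13.2%), against 0.941%. These 7 belonged to Mmp1b, Mmp3, Mmp7, Mmp10, Mmp12 and Mmp13, all in the cluster, and to Adam29. Such a match is a description of letters and not of a bound site. The 150 bases before the start, all on the plus strand, are shown with the words in capitals for 4 cluster genes that hold both words. These 4 were picked by hand. Mmp12 and Mmp1b, which also hold both words, are not shown. Mmp7 has 2 windows, and only the one with both words is shown.
Mmp13 (chr9:7272364-7272513): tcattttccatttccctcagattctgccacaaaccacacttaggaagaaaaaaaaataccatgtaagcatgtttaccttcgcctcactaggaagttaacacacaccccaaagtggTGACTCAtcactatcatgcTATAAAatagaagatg
Mmp3 (chr9:7445672-7445821): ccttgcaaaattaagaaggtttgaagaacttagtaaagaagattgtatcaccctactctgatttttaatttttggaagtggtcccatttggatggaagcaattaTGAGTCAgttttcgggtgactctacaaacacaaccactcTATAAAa
Mmp10 (chr9:7502192-7502341): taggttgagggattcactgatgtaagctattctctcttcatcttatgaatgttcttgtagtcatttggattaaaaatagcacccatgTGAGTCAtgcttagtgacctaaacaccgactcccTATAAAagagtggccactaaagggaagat
Mmp7 (chr9:7691940-7692089): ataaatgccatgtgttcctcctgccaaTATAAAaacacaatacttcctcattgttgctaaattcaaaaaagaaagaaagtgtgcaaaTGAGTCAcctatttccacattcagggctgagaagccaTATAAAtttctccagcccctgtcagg
The AP-1 word begins 35 bases before the start in Mmp13, where it is read on the reverse strand, 46 in Mmp3, and 63 in both Mmp10 and Mmp7. The TATA word follows it, beginning 16, 7, 29 and 26 bases before the start, and Mmp7 has another at 123 bases. These distances are from the RefSeq starts, and for Mmp10 the gene start in the deposited table lies further downstream, at 7502352.

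**Figure D3:**
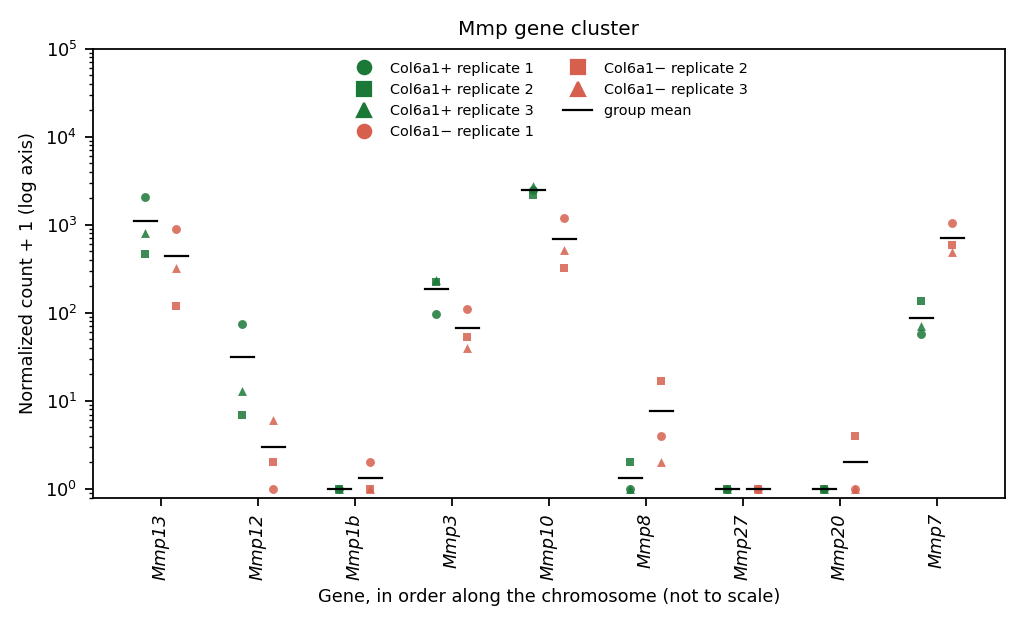
Normalized count + 1 (log axis) of each library for the 9 genes of the Mmp cluster, placed in their order along the chromosome and not to scale, with the group mean as a line. Mmp10 has its Col6a1+ points above the Col6a1− points and Mmp7 at the far end has them below, while Mmp27 is at 0 throughout.

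None of the 4 TIMPs was called by limma over all genes, and Timp1, Timp2 and Timp3 had higher means in Col6a1+ CAFs (unadjusted p of 0.0208, 0.00532 and 0.00456). With limma-voom, Timp2 and Timp3 passed (adjusted p = 0.0496 and 0.0472). Timp2, which inhibits MMPs and also takes part in Mmp2 activation, had 2407, 5389 and 3050 normalized counts in Col6a1+ CAFs and 1501, 1656 and 1489 in Col6a1− CAFs (log2 fold change 1.14, SE 0.33, limma adjusted p = 0.082). Timp3, the inhibitor that stays bound to the matrix and also acts on Adam17 and on ADAMTSs, had 1147, 1612 and 1383 against 724, 789 and 584 (0.98, SE 0.27, limma adjusted p = 0.0745). The libraries of the groups were apart for both genes, although the calls were not reached. Timp1, an inducible secreted inhibitor, had 281, 162 and 154 against 153, 57 and 18, where the lowest Col6a1+ value was next to the highest Col6a1− value (1.80, limma adjusted p = 0.186). With the block and a mean of at least 10, these 3 passed (limma adjusted p 0.0279 for Timp2, 0.0305 for Timp3 and 0.0406 for Timp1). With the block over all genes they did not (0.129, 0.118 and 0.187). Timp4 had 0, 1 and 0 against 0, 19 and 4 (limma adjusted p = 0.434).

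Of 33 ADAMs, 14 were at 0 in all libraries, 19 were tested and 9 had a mean of at least 10. Of the 9, 2 were called, both lower in Col6a1+ CAFs (10.5% of the 19 tested, against 1.96% of all genes tested). Adam10 (chr9:70678997-70780229), which sheds Notch receptors and E-cadherin, had 106, 110 and 100 normalized counts in Col6a1+ CAFs and 299, 226 and 245 in Col6a1− CAFs. Both groups were tight, and the level was lower in Col6a1+ CAFs (105 ± 5.03 against 257 ± 37.9, SD, n = 3) with a log2 fold change of -1.27 (SE 0.32, limma adjusted p = 0.0488, 0.11 with the block). Adam8 (chr7:139978932-139992562), a sheddase known from leukocytes, had 2, 17 and 1 against 93, 71 and 64, a log2 fold change of -4.00 (SE 0.89, limma adjusted p = 0.0311, 0.119 with the block). Adam17, which releases TNF and ligands of the EGF receptor, had 908, 322 and 347 against 419, 440 and 425. Here the direction was set by Col6a1+ replicate 1, with a log2 fold change of 0.12 over all libraries and -0.36 without it (limma adjusted p = 0.878 and 0.311). Adam17 overlaps Iah1 on the other strand, and the counting's use of strand is not given in the sources used here.

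Among the remaining ADAMs, Adam19, a sheddase of neuregulins, had 28, 132 and 302 normalized counts against 9, 16 and 16 in Col6a1− CAFs. The groups did not overlap but the Col6a1+ libraries were far from each other (log2 fold change 2.89, SE 0.79, limma adjusted p = 0.0716, and 3.82 with adjusted p = 0.0555 without Col6a1+ replicate 1). Adam19 passed with the block over genes whose mean was at least 10 (limma adjusted p = 0.0222) and not with the block over all genes (0.124). Adam9, a widely expressed sheddase, had 97, 71 and 103 against 46, 29 and 25 (1.44, limma adjusted p = 0.12). Adam15, which also binds integrins, had 334, 159 and 113 against 66, 205 and 68 with overlapping groups (0.89, limma adjusted p = 0.471).

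The ADAMTSs held the largest number of higher calls, 5 of the 19 tested (26.3%, against 2.66% of all genes tested). The MMPs were close, with 4 of 19 (21.1%). Lower was 1 ADAMTS (5.26%, against 1.96%). Of the 5 higher ADAMTSs, 4 cut proteoglycans. Adamts1 (chr16:85793827-85803113), which cuts versican and aggrecan, had 1227, 1221 and 1226 normalized counts in Col6a1+ CAFs and 154, 155 and 141 in Col6a1− CAFs. The 3 libraries of each group were nearly the same and the groups were far apart (1225 ± 3.21 against 150.0 ± 7.81, SD, n = 3), with a log2 fold change of 3.02 (SE 0.26, limma adjusted p = 4.94e-04). The block gave an adjusted p of 0.0612, and leaving out 1 library gave 0.0367 to 0.14. Adamts4 (chr1:171250421-171260637), an aggrecanase, had 305, 1567 and 1985 against 63, 180 and 98, where Col6a1+ replicate 1 was the lowest of its group and still above all Col6a1− libraries (log2 fold change 3.23, SE 0.65, limma adjusted p = 0.0193, 0.0705 with the block).

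Adamts9 (chr6:92772699-92943492), which cuts versican, had 248, 145 and 216 normalized counts against 15, 14 and 38 in Col6a1− CAFs (log2 fold change 3.24, SE 0.50, limma adjusted p = 0.00589, 0.0662 with the block). Adamts15 (chr9:30899155-30922452), another versican-cutting enzyme, had 365, 224 and 238 against 46, 35 and 47 (2.64, SE 0.37, limma adjusted p = 0.00375, 0.0612 with the block). For both, every Col6a1+ library was several times above every Col6a1− library. Adamts2 (chr11:50602084-50807573), the enzyme that removes the amino-terminal propeptide of fibrillar procollagens, had 1597, 1609 and 3735 against 61, 265 and 108. It had the largest log2 fold change of the called ADAMTSs, 4.13 (SE 0.52, limma adjusted p = 0.00215, 0.0678 with the block). Adamts14, with the same activity on procollagen, had 44, 22 and 48 against 1, 7 and 3 and did not pass over all genes (3.21, SE 0.88, limma adjusted p = 0.0714). Over genes whose mean was at least 10 its limma adjusted p was 0.0447, and 0.0609 with the block added. With the block over all genes it was 0.167.

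Adamts17 (chr7:66839735-67153171), which acts on fibrillin microfibrils, was the ADAMTS with lower levels in Col6a1+ CAFs, at 4, 22 and 17 normalized counts against 167, 55 and 167 (log2 fold change -3.19, SE 0.72, limma adjusted p = 0.0317, 0.162 with the block). Adamts10, a related fibrillin-binding member, had 329, 168 and 95 against 65, 63 and 25 (1.87, limma adjusted p = 0.0905). With the block it was 0.092 over all genes and 0.0163 over genes whose mean was at least 10. Adamts10 and Adamts17 lay on opposite sides of 0. Adamts13, which cuts von Willebrand factor, had 115, 43 and 48 against 26, 23 and 15 without overlap (1.53, limma adjusted p = 0.198).

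Of the 4 families, the ADAMTSs had the widest gap between the groups when counts were summed. Their summed normalized counts were 4343, 5125 and 7721 (lowest, median and highest) in Col6a1+ CAFs and 638, 694 and 872 in Col6a1− CAFs. MMPs summed to 6752, 9309 and 9923 against 2885, 3113 and 5065, and TIMPs to 3835, 4587 and 7164 against 2095, 2378 and 2521. For these 3 families the groups were apart, whereas the ADAMs overlapped at 926, 1064 and 1549 against 934, 1057 and 1083. The sums are dominated by the members with most counts, and they were given no test.

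**Figure D4:**
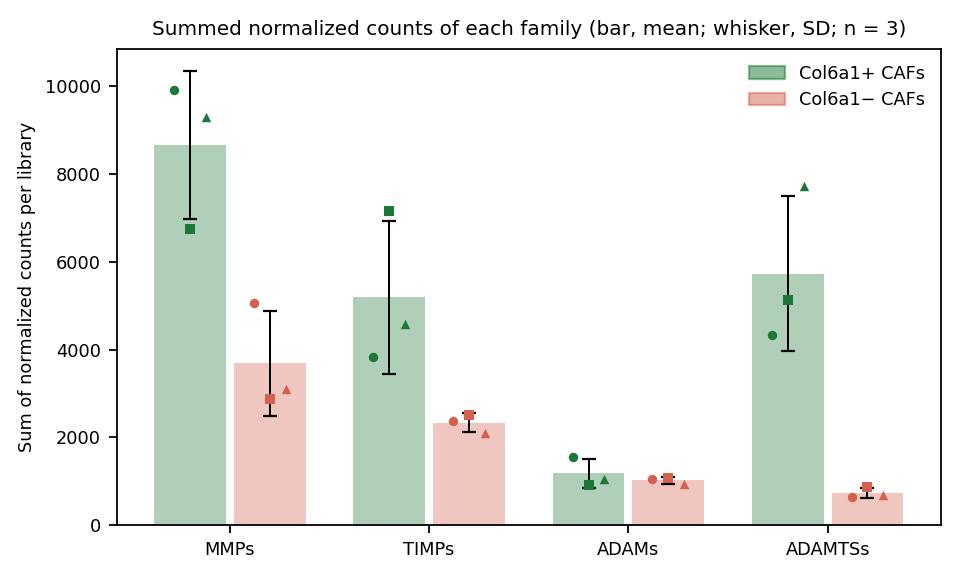
Sum of normalized counts per library (vertical axis, linear from 0) over the genes of each family, with bars for the mean, whiskers for the SD (n = 3) and points for the libraries. Col6a1+ points are above all Col6a1− points for MMPs, TIMPs and ADAMTSs and mixed with them for ADAMs.

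The 5 members lower in Col6a1+ CAFs stood beside the markers of other cells. In the same libraries Epcam, an epithelial surface protein, had 1074, 884 and 615 normalized counts against 3107, 4129 and 3730, a log2 fold change of -2.12. Cdh1, which encodes the adhesion protein E-cadherin, had 2999, 2344 and 2580 against 10493, 15452 and 11963 (-2.25), and no epithelial marker of the list was at 0 in either group. Over the 9 epithelial markers the log2 fold changes ran from -3.73 (Lgr5) to -0.29 (Krt20), with -3.45 for Muc2 and -3.24 for Krt18. Those of Mmp7 (-3.04), Mmp15 (-3.34), Adamts17 (-3.19) and Adam10 (-1.27) lay within this range, and that of Adam8 (-4.00) lay outside it. The range is wide, since Krt20 at its end overlapped between the groups and was not called. The differences between genes were not tested. S100a8 and S100a9, which are abundant in neutrophils, had 23, 17 and 29 against 211, 387 and 167 and 20, 18 and 7 against 229, 391 and 162. They were the only leukocyte genes of the list called lower. Itgam had overlapping groups (38, 0 and 8 against 13, 24 and 43). Csf1r (0, 3 and 5 against 1, 2 and 1), Cd79a and Adgre1 leaned the other way. Cd3e was at 0 in all Col6a1+ libraries and Cd79a and Adgre1 in all Col6a1− libraries. The part of epithelial or leukocyte RNA in the 5 differences was not tested.

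**Figure D5:**
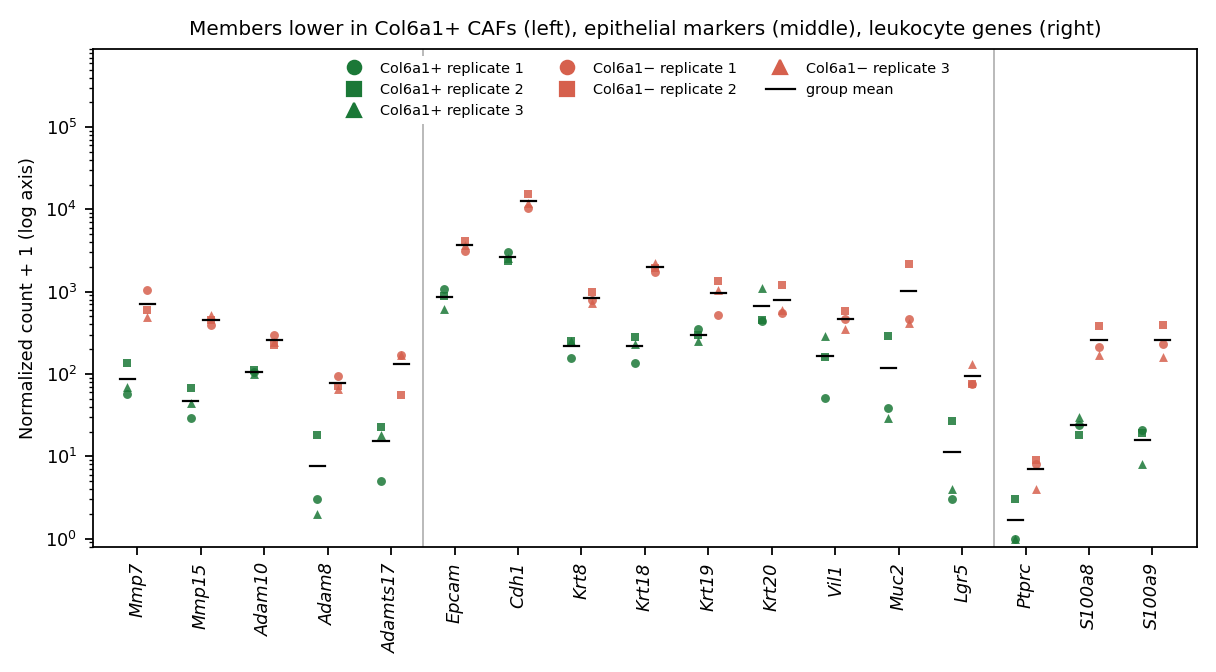
Normalized count + 1 (log axis) of each library for the 5 members lower in Col6a1+ CAFs (left), 9 epithelial markers (middle) and 3 of the 10 leukocyte genes (right), with the group mean as a line. The 5 members have no overlap between groups, and Epcam, Cdh1, S100a8 and S100a9 show the same direction.

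The higher members stood beside the pericyte, smooth muscle and fibroblast markers. Rgs5, a pericyte gene, had a log2 fold change of 6.16 and 502 ± 202 normalized counts in Col6a1− CAFs (SD, n = 3), and Pdgfra, the fibroblast receptor gene, was also called higher. Log2 fold changes of the pericyte genes ran from 4.59 (Kcnj8) to 6.16 (Rgs5). Those of the smooth muscle genes ran from 0.17 (Cnn1, not called) to 4.37 (Des). Fibroblast genes ran from 0.56 (Lum, not called) to 2.50 (Col1a2), with 2.04 for Pdgfra. The 9 higher members ran from 2.07 (Mmp10) to 4.24 (Mmp17). Whether these members follow the pericytes, the smooth muscle cells or the fibroblasts was not tested.

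Of 44 listed activators, inhibitors and related genes outside the 4 families, 41 were tested, 5 were called higher in Col6a1+ CAFs (12.2%, against 2.66% of all genes tested), 0 were lower (against 1.96%), and the median log2 fold change was 0.67. At an unadjusted p under 0.05, limma gave 13 higher (31.7%, against 6.63% of all genes) and 1 lower (2.44%, against 9.4%). Plau, the urokinase that makes plasmin and so can start MMP activation, had 169, 174 and 208 normalized counts against 73, 31 and 45 (1.94, limma adjusted p = 0.0261, 0.107 with the block). Serpine2, a protease inhibitor that blocks urokinase and plasmin, had 4501, 1983 and 2955 against 1197, 667 and 399 (2.12, limma adjusted p = 0.0199, 0.0725 with the block). Both the protease and its inhibitor were thus higher. Bmp1, which removes the carboxy-terminal propeptide of procollagens, had 505, 430 and 682 against 197, 233 and 137 (1.51, limma adjusted p = 0.0274, 0.134 with the block). Tspan17, a tetraspanin that moves Adam10 to the surface, had 286, 193 and 486 against 48, 36 and 31 (2.96, limma adjusted p = 0.00426, 0.0717 with the block). Tspan5 and Tspan14, of the same group of Adam10 partners and named after their values were seen, were on the other side, as Adam10 was. Tspan15, also listed, leaned higher with overlapping groups, at 68, 86 and 120 against 38, 93 and 60 (0.57, limma adjusted p = 0.603). The listed Tspan10 and Tspan33 were near 0 in all libraries. Tspan5 had 0, 22 and 17 against 152, 81 and 121 (-3.95, limma adjusted p = 0.0655) and Tspan14 had 512, 308 and 453 against 621, 681 and 640 (-0.64, limma adjusted p = 0.315). Adamtsl1, an ADAMTS-like protein without the protease domain, had 290, 169 and 200 against 15, 25 and 11 (3.65, limma adjusted p = 0.00232, 0.0612 with the block). None of the 5 was called with the block over all genes, and only Adamtsl1 passed with a library left out (adjusted p = 0.0462 without Col6a1− replicate 2). With the block over genes whose mean was at least 10, 7 partners were called higher, these 5 with Reck and Ctsk, and 1 lower, Tspan5 (adjusted p = 0.0397). Reck, a membrane inhibitor of MMPs, had 46, 22 and 49 against 1, 6 and 1. Without the block it did not pass over all genes (3.64, limma adjusted p = 0.0519). It passed without the block over genes whose mean was at least 10 (limma adjusted p = 0.0339). Plg, the gene of plasminogen, was at 0 in all libraries.

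The rest of the members were low or overlapped. The 9 with a mean of at least 10 that the rule does not name, Mmp14 and Mmp3 among them, had overlapping groups, log2 fold changes of -1.19 to 1.93 and limma adjusted p of 0.147 to 0.963. They include Adamts5, an aggrecanase, at 9, 30 and 56 normalized counts against 17, 54 and 21, and Adam12, at 27, 34 and 31 against 44, 24 and 31. Another 24 tested members had a mean under 10, none was called with all 6 libraries, and the highest value of any of them in a library was 19 (Timp4). Adam33, at 0, 0 and 0 against 4, 0 and 3, was called in the fit without Col6a1− replicate 2 (adjusted p = 0.0493).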

How the data were processed

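QuantSeq reads of 6 libraries were mapped by the authors with TopHat2, and the remaining reads with Bowtie2, to mm10, counted per gene with GenomicRanges and normalized with DESeq through metaseqr. The deposited values are log2 of the normalized count plus 1, and 100% of them are whole normalized counts (within 1e-06). The number of reads per library is not given in the sources used here, so intervals from counts were not computed. The deposited table also holds 6 per-sample columns on another scale and the authors' own p-values, false discovery rates and fold changes, which were not used. The values used are normalized and on a log2 scale, to which limma 3.58.1 in R 4.3.3 was fitted (lmFit, eBayes with trend, 4 residual and 6.48 prior degrees of freedom). The fit took the 26402 genes with a summed normalized count of at least 1, with Benjamini-Hochberg adjustment over all of them. For limma-voom, an alternative, the normalized counts were recovered from the log2 values. The authors' scaling was kept.

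Groups and replicate numbers came from the labels. Each library is a pool of tumors from several mice, and the labels do not say which pools shared mice, so p-values measure the spread between these pools. The study describes 3 sequenced samples, each a pool of tumors. After subtraction of the group means, libraries of the same number correlated at 0.245, 0.125 and 0.144 and those of different numbers at -0.245 to 0.150 (13515 genes with a mean of at least 10). The numbers were read as pairs. As 0.150 lies above 0.125 and 0.144, these correlations do not settle the pairing.

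Named genes are the 4 TIMPs, every member called, every further member with a mean of at least 10 and no overlap between the groups, and the 4 members with the highest mean in each of the MMP, ADAM and ADAMTS families. The members and the lists of partners and markers were chosen with earlier results of these data known. The symbols gave 43 of the 44 listed partners a row. Alternatives were 0.1 added before the log, library size alone, upper quartile scaling, 2 filters on low values, limma-voom, the replicate block with and without a filter, leaving out each library, array weights, and a criterion of unadjusted p under 0.05 and a log2 fold change beyond 1 in size. The procedure was tested on simulated data. Promoter windows and coordinates used Python 3.11.15 and pandas 2.3.3, and plots Matplotlib 3.10.9. The scan of protein sequences was not run, and homeostatic samples are not analysed here.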

Additional observations from a re-analysis of the deposited data

How the results depend on the processing

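Of the 425 values that the named members took under the alternatives, 423 kept their direction. Many could not change it. The block and the filters on low values return the same log2 fold change as the reported fit. Members whose groups do not overlap cannot reverse when a library is left out. The count therefore does not measure how stable the directions are. Adam17 reversed, at -0.36 without Col6a1+ replicate 1 and -0.21 with array weights, and lay between -0.36 and 0.39 over the fits without 1 library. Members called higher were 0 with the replicate block, 16 with the block and a mean of at least 10, 15 with array weights, 19 by the unadjusted criterion, and 0 to 2 when 1 library was left out (9 in the reported fit). Members called lower were 2 with 0.1 added before the log, 3 when every library had to reach 10 normalized counts (21 of the 29 named members had a value), 3 with limma-voom, 0 with the block, and 0 to 1 without 1 library (5 reported). For all genes, the higher calls were 0 with the block, 1607 by the criterion and 0 to 98 without 1 library (703 reported), and the lower calls were 336 with 0.1 added, 798 with limma-voom, 0 with the block, 871 with the block and a mean of at least 10, 969 with array weights, 2273 by the criterion and 0 to 166 without 1 library (517 reported). The cause of these changes was not tested, beyond the fewer libraries or genes that an alternative leaves. The replicate block over all genes ended all 14 calls, and over genes with a mean of at least 10 it kept all 14. Levels near 0 limit Mmp17, Adam8 and the members with a mean under 10.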
